A study of Mus musculus with 6 samples.

Results

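The genes described here are 10 regulators of spermatogonial stem cells and their progenitors, the cells from which sperm production starts. They were taken by name, as the rows of a gene count table whose Ensembl identifier maps to Gfra1, Ret, Zbtb16, Id4, Etv5, Nanos2, Nanos3, Lin28a, Sall4 or Foxo1 in GENCODE M21. All 10 were found among 49671 gene rows, and all 10 passed the filter on low counts. The table holds RNA-seq of whole testes from C57BL/6J mice at 12 days post-partum, 3 libraries from Ankrd31-/- mice and 3 from Ankrd31+/+ mice, with 21014060 to 22706296 counts per library. Ankrd31 encodes an ankyrin-repeat protein of the machinery that makes the programmed DNA breaks of meiosis, and the study asked how its loss affects the testis transcriptome. Which part of the gene the knockout allele alters, and whether replicate numbers mark litters or days, is not stated in the labels.

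Spermatogonial stem cells renew themselves under GDNF, a growth factor of somatic neighbours that signals through the receptor kinase RET and its co-receptor GFRA1, and transcription factors such as ETV5 act downstream of that signal. ZBTB16 (also called PLZF), SALL4, FOXO1 and ID4 act in the nucleus of undifferentiated spermatogonia, while NANOS2, NANOS3 and LIN28A are RNA-binding proteins. In mice some of these genes mark the stem end of the population (Gfra1, Id4, Nanos2) and others the wider pool of progenitors (Lin28a, Sall4, Zbtb16). Undifferentiated spermatogonia then become KIT-positive differentiating spermatogonia, which enter meiosis from about the second week of life.

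Promoter windows are shown for Nanos3, the only member whose knockout and wild-type libraries did not overlap, and for its paralog Nanos2. Those of Gfra1 and Id4, which varied in opposite directions between replicate numbers, are shown too. RefSeq (GRCm38.p6, the assembly that mm10 denotes) holds windows from 250 bases before to 50 after the annotated start for 7 of the 10 members, 8 windows in all, with no entry used here for Ret, Zbtb16 and Sall4. Capitals mark CANNTG, the E-box core, which reads the same on both strands and is bound by basic helix-loop-helix proteins, the class that ID proteins hold in check.
Nanos3, GRCm38.p6 chr8:84176503-84176802, minus strand: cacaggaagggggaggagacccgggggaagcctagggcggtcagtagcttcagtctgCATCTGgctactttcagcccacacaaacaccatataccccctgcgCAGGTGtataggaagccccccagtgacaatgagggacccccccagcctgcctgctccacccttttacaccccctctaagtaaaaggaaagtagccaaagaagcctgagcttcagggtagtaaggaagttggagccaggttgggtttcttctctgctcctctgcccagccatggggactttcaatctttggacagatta
Nanos2, GRCm38.p6 chr7:18987274-18987573, plus strand: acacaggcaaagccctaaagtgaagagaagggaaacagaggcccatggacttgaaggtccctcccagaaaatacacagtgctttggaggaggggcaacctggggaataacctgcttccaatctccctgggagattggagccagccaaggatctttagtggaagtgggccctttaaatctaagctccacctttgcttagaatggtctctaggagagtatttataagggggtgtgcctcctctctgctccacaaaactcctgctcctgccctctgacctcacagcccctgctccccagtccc
Gfra1, GRCm38.p6 chr19:58455349-58455648, minus strand: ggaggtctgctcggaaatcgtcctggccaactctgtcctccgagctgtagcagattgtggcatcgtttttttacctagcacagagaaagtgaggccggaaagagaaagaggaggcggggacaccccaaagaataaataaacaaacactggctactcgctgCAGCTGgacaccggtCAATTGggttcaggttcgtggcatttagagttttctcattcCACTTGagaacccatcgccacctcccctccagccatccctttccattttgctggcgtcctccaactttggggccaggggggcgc
Id4, GRCm38.p6 chr13:48260866-48261165, plus strand: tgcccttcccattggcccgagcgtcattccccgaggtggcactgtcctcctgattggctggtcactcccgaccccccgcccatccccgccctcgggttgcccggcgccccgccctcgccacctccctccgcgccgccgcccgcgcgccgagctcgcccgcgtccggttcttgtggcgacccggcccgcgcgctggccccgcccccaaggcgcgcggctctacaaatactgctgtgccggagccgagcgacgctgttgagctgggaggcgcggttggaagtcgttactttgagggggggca
The E-box core occurred 2 times in the Nanos3 window, 3 times in that of Gfra1 and 0 times in those of Nanos2 and Id4. It was found in 4 of the 8 member windows, against 72.3% of 32851 windows of the same length. The GC box GGGCGG, searched on both strands, occurred 5 times in the Id4 window and 1 time in that of Nanos3, and was found in 5 of 8 member windows against 35.7% of all windows. TATAAA, also searched on both strands, was found in 1 member window, that of Nanos2, against 13.6% of all windows. CCAAT, searched in the same way, was found in 6 of 8 member windows against 37.4% of all windows. The Id4 window had a GC content of 73.3%, against 55.3% for Nanos3, 53.0% for Nanos2, 54.0% for Gfra1 and a mean of 53.8% over all windows. A match to these letters describes the window and is no evidence of binding. The annotated starts also differ from those of the counted rows. The Nanos3 window lies inside its counted row, which runs from 84173731 to 84185217 on the minus strand. The Id4 window ends at 48261165, before its counted row starts at 48261427. A window need thus not be the promoter of the transcripts counted.

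Ankrd31 itself (ENSMUSG00000109561) was at 40.8, 33.2 and 38.0 CPM in knockout replicates 1, 2 and 3, against 84.9, 52.3 and 63.2 CPM in wild-type replicates 1, 2 and 3. CPM, the unit used throughout, scales each count to the library size after TMM normalization. Every knockout library lay below every wild-type library, with a log2 fold change of -0.84 ± 0.17 (SE). The adjusted p was 1 in edgeR's quasi-likelihood test and 0.00505 in the same test with the replicate number as a block. Reads from any part of the gene that is still transcribed would count too, so this checks the labels only in part. The germ cell, Sertoli, peritubular, Leydig, stromal, endothelial and macrophage lists were detected in all 6 libraries. Wild-type replicate 3 had the highest level of epididymis and rete genes, a sum of 66.5 CPM for 6 genes against 8.42 to 14.8 CPM in the other libraries. The secreted epididymal protein gene Crisp1, of that list, had 64 counts in knockout replicate 3 and 628 in wild-type replicate 3, against at most 3 in the others, and Pax2 was detected in all 6. In edgeR with or without the block, 0 genes passed on any of these cell type lists when all 6 libraries were used. With the block and without pair 1, Hsd17b3, Col1a1, Crisp1 and Tex101 of these lists were called. Without pair 2 the calls were Cdh16, Crisp1 and Hsd3b1, and without pair 3 there were none. Their median log2 fold changes were 0.03 for general germ cell, -0.03 for Sertoli, 0.03 for peritubular, -0.01 for Leydig, -0.13 for stromal, -0.12 for endothelial, 0.08 for macrophage and -0.17 for erythrocyte genes, and -1.80 for the 5 tested epididymis and rete genes. Leydig genes ranged from -0.58 for Hsd17b3 to 1.55 for Star. They summed to 362, 766 and 254 CPM in knockout replicates 1, 2 and 3, against 340, 396 and 396 CPM in the wild type. The replicate 1 libraries of both genotypes stood apart on the first principal component (36.7% of the variance), at -23.37 in the knockout and -25.55 in the wild type, against 3.75 to 22.84 in the others.

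The stem cell and progenitor regulators had means between 75.0% and 112% of wild type in Ankrd31 knockout testes, and no member passed the test. Of the 10, 7 had a log2 fold change below 0 and 3 above, where 52% of all 18040 tested genes were below 0. The members' median was -0.08, beside -0.005 over all tested genes. The median was 0.025 without wild-type replicate 3 and -0.18 without wild-type replicate 1. In edgeR's quasi-likelihood test 0 of 10 members were called, where 0% of all tested genes were. Without the block it called no gene at all, Ankrd31 included, so it could not set the members apart from other genes. At an unadjusted p under 0.05 the test gave 1 member (Nanos3) and 374 genes in all, 2.07% of those tested; with the replicate block these were again 1 member and 7.48% of tested genes. DESeq2 and limma voom each called 0 members, and edgeR with the replicate block called 0 members and 0.0443% of all genes. The 95% interval of the fold change included 0 on the log2 scale for 9 members. The intervals and SEs given for the members are from the fit without the block unless stated. With the block the SE was smaller for every member, at 0.088 against 0.168 for Id4 and 0.157 against 0.161 for Nanos3. Lin28a had 0.051 against 0.111 and Sall4 0.049 against 0.092. In bulk testis RNA, fewer cells of a type and less RNA per cell cannot be told apart.

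**Figure D1:**
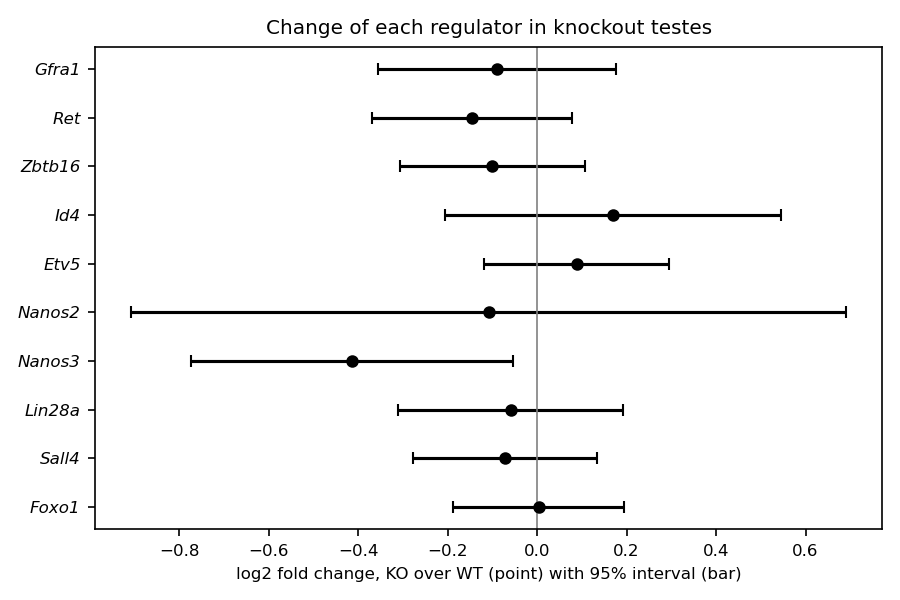
Log2 fold change, knockout over wild type, of the 10 regulators (points) with 95% intervals from edgeR without the replicate block (bars). The interval lies wholly below 0 for Nanos3 and spans 0 for the other 9 genes, widest for Nanos2.

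The receptor genes, which stand first in the pathway, had small fold changes. Gfra1 (ENSMUSG00000025089, mm10 chromosome 19, 58235604 to 58455909, minus strand) was at 19.4, 20.9 and 21.4 CPM in knockout replicates 1, 2 and 3, against 17.9, 23.04 and 24.7 CPM in wild-type replicates 1, 2 and 3. The knockout values fell inside the wild-type range. Its log2 fold change was -0.09 ± 0.12 (SE), and the 95% interval ran from 78.2% to 113% of the wild-type level. Ret (ENSMUSG00000030110, chromosome 6, 118151745 to 118197718, minus strand) was at 33.4, 34.8 and 35.5 CPM in the knockout and 32.2, 41.3 and 41.1 CPM in the wild type. Again the groups overlapped, because wild-type replicate 1 lay below all 3 knockout libraries. The log2 fold change of Ret was -0.15 ± 0.10, with an interval of 77.4% to 106%.

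Etv5 and Id4 were the members whose mean was higher in the knockout by more than 5%. Etv5 (ENSMUSG00000013089, chromosome 16, 22381309 to 22439719, minus strand), an ETS factor needed for stem cell renewal that Sertoli cells express too, was at 26.8, 26.6 and 30.8 CPM in the knockout and 28.5, 24.5 and 26.2 CPM in the wild type. Id4 (ENSMUSG00000021379, chromosome 13, 48261427 to 48264036, plus strand), an inhibitor of basic helix-loop-helix factors, was at 18.4, 13.2 and 15.5 CPM in the knockout and 17.3, 11.6 and 13.0 CPM in the wild type. In both genotypes Id4 was highest in replicate 1 and lowest in replicate 2. Its log2 fold change was 0.17 ± 0.17 with an interval of 86.6% to 146% of wild type, and that of Etv5 was 0.09 ± 0.09 with 92.2% to 123%. Neither passed in edgeR (adjusted p = 1 for each).

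Among the other nuclear factors, Zbtb16 (ENSMUSG00000066687, chromosome 9, 48654297 to 48836222, minus strand) was at 80.7, 84.0 and 91.6 CPM in the knockout and 78.9, 96.7 and 99.2 CPM in the wild type. Sall4 (ENSMUSG00000027547, chromosome 2, 168748332 to 168767943, minus strand), a zinc finger factor of pluripotent and germ cells, was at 77.1, 85.3 and 90.5 CPM in the knockout and 77.5, 94.6 and 93.8 CPM in the wild type. Foxo1 (ENSMUSG00000044167, chromosome 3, 52268336 to 52353221, plus strand), a forkhead factor held out of the nucleus by PI3K and AKT signalling and also present in endothelium, was at 132.8, 146.8 and 166.3 CPM in the knockout and 139.1, 150.2 and 155.4 CPM in the wild type. The groups overlapped for all 3 genes, and replicate 1 was the lowest library of each genotype for each of them. The log2 fold changes were -0.10 ± 0.09 for Zbtb16 and -0.07 ± 0.09 for Sall4, with intervals of 80.8% to 108% and 82.6% to 110% of wild type. Foxo1 had a log2 fold change of 0.004 ± 0.09 and an interval of 87.8% to 114%.

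The RNA-binding members included Nanos3, which had the largest fold change of the 10 in size. Nanos3 (ENSMUSG00000056155, chromosome 8, 84173731 to 84185217, minus strand), needed for the survival of primordial germ cells, was at 3.37, 3.11 and 3.69 CPM in knockout replicates 1, 2 and 3, against 3.94, 4.66 and 4.97 CPM in wild-type replicates 1, 2 and 3. All 3 knockout libraries lay below all 3 wild-type libraries, as they did for 3.5% of tested genes. No member had all knockout libraries above the wild type, a pattern of 3.09% of tested genes. The means were 3.39 ± 0.29 CPM in the knockout and 4.52 ± 0.53 CPM in the wild type (SD, n = 3 each). The ratio of the means was 75.0%, and the 95% interval of the fold change was 58.5% to 96.3% of wild type. The log2 fold change was -0.41 ± 0.16 (SE), with an unadjusted p of 0.0279 and an adjusted p of 1 in edgeR. By unadjusted p it ranked 173 of 18040 genes, and that p was not under 0.05 in DESeq2 or in edgeR without knockout replicate 1 or 2 or wild-type replicate 2 or 3. With the replicate block its log2 fold change was -0.41 ± 0.16 and its edgeR adjusted p was 0.588. The 6 libraries held 68 to 106 counts of it. Summed levels of general germ cell genes overlapped between the groups, at 2169 to 2561 CPM in the knockout and 1978 to 2674 CPM in the wild type, and those of early meiotic genes did too. The 7 endothelial genes all had log2 fold changes below 0, and their sums overlapped, at 130 to 152 CPM in the knockout and 137 to 173 CPM in the wild type. Of these 7, only Sox17 had non-overlapping groups, at 3.55, 3.34 and 3.11 CPM in the knockout and 4.12, 4.71 and 4.97 CPM in the wild type. What part these cell types have in the value of Nanos3 was not tested.

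Nanos2 (ENSMUSG00000051965, chromosome 7, 18987400 to 18988962, plus strand), which holds male germ cells back from differentiation and meiosis, was close to the limit of detection. It had 13, 21 and 20 counts in knockout replicates 1, 2 and 3, against 12, 19 and 27 counts in wild-type replicates 1, 2 and 3. The log2 fold change of -0.11 ± 0.36 had an interval of 53.3% to 161% of wild type. That interval includes a change of the size estimated for Nanos3. Lin28a (ENSMUSG00000050966, chromosome 4, 134003330 to 134018841, minus strand), which blocks the maturation of let-7 microRNAs, was at 84.0, 90.4 and 102.4 CPM in the knockout and 80.9, 99.9 and 107.5 CPM in the wild type. The groups overlapped, and its log2 fold change was -0.06 ± 0.11 with an interval of 80.7% to 114%.

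**Figure D2:**
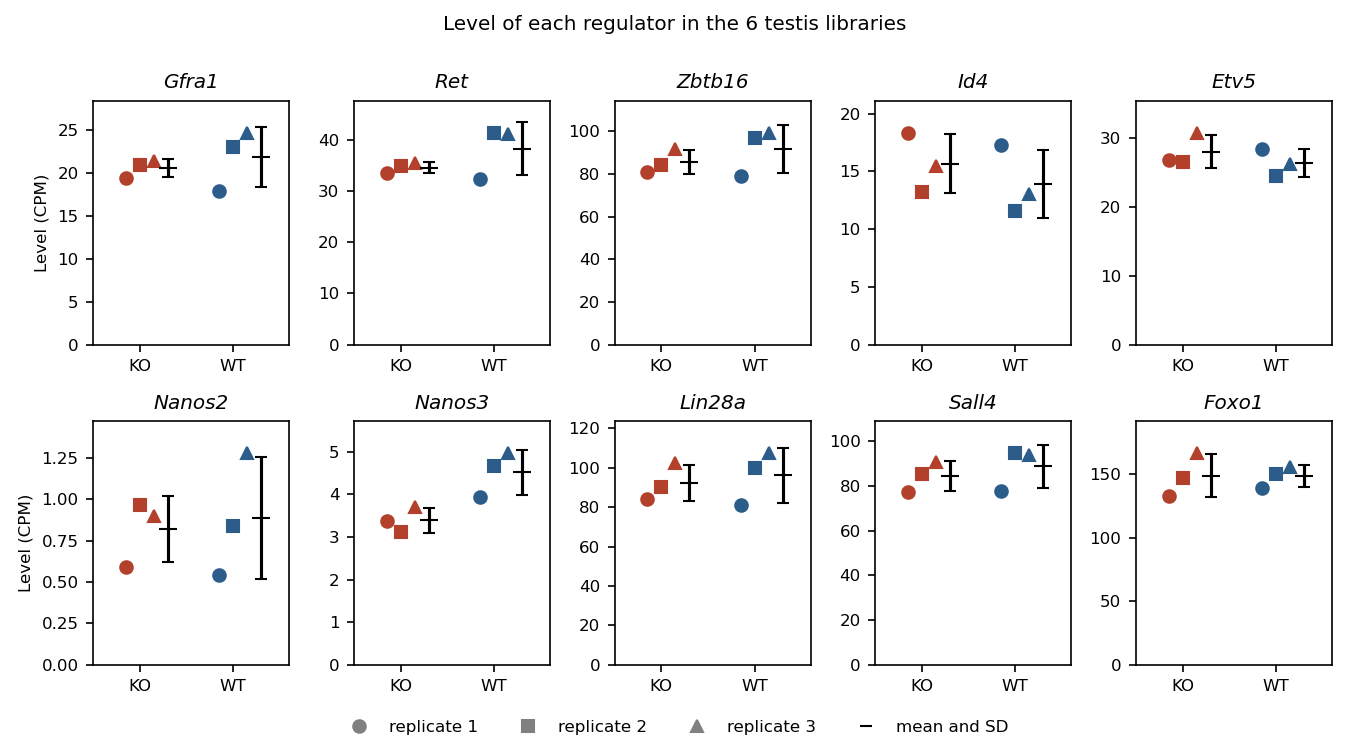
Level of each regulator in CPM (vertical axes from 0) in knockout and wild-type libraries, with replicates as separate symbols and the mean and SD beside them. The groups overlap in 9 panels, and in the Nanos3 panel all 3 knockout points lie below all 3 wild-type points.

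Most members were lower in the replicate 1 libraries of both genotypes. Both replicate 1 libraries lay below all 4 others for 7 members (Gfra1, Ret, Zbtb16, Nanos2, Lin28a, Sall4 and Foxo1), a pattern seen in 14.8% of all tested genes. The mean of the replicate 1 libraries was 82.4% of the mean of the others for Lin28a, 83.0% for Gfra1, 84.9% for Sall4 and 57.1% for the sparsely counted Nanos2. Id4 went the other way, at 134%, while Etv5 stood at 102%. The summed level of the 10 members was 477, 506 and 559 CPM in knockout replicates 1, 2 and 3, against 477, 547 and 567 CPM in wild-type replicates 1, 2 and 3. The lowest sum of each genotype was thus in replicate 1.

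Meiotic and stromal genes differed between the same libraries. The 12 early meiotic genes, among them Sycp1, Sycp3 and Dmc1, summed to 2520, 1900 and 2247 CPM in the knockout and 2539, 1514 and 1928 CPM in the wild type. Both replicate 1 libraries lay above all others for 11 of the 12, against 14.6% of all tested genes. Of the 12, 10 had a log2 fold change above 0, with a median of 0.16, and 0 passed in edgeR with or without the block. At an unadjusted p under 0.05 the count was 0 without the block and 5 with it. Over all tested genes the shares were 2.07% and 7.48%. Their pair medians were -0.01, 0.36 and 0.25 in pairs 1, 2 and 3, above 0 in pairs 2 and 3, where the members' medians were below 0. With the block and without pair 1, edgeR called Sycp1, Sycp3 and Hormad1 of this list, among 63 called of 18104 tested genes. It called none of this list with the block without pair 2 or without pair 3. The 6 interstitial stroma genes summed to 1150, 1247 and 1344 CPM in the knockout and 1118, 1378 and 1468 CPM in the wild type, with replicate 1 lowest in both. Differentiating spermatogonia genes varied less, at 1231, 1287 and 1227 CPM in the knockout and 1232, 1370 and 1292 CPM in the wild type. Their part in the values of the members was not tested.

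**Figure D3:**
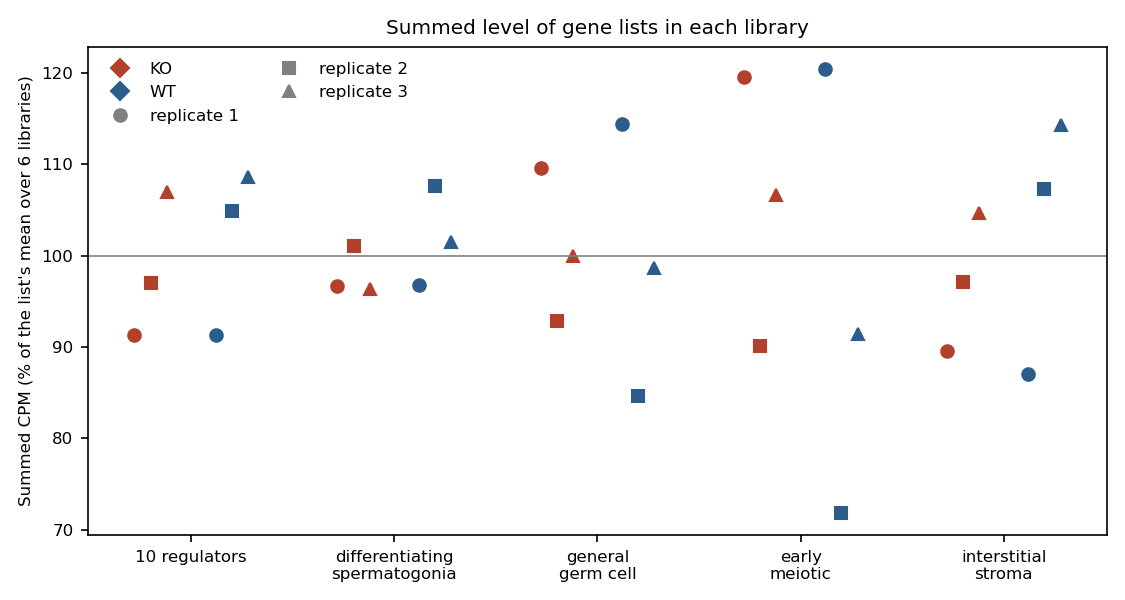
Summed CPM of 5 gene lists in each library, as a percentage of the list's mean over the 6 libraries, knockout left of wild type. Replicate 1 (circles) is the lowest library of each genotype for the regulators and the stroma list, and the highest for the general germ cell and early meiotic lists.

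The pairs of libraries with the same number differed among themselves. On the scale of log2(CPM + 0.5), 4 members were below 0 in pair 1, 7 in pair 2 and 7 in pair 3. Nanos3 was lower in all 3 pairs, with log2 ratios of -0.20, -0.51 and -0.38 in pairs 1, 2 and 3, and Sall4 was lower in all 3 at -0.007, -0.15 and -0.05. For comparison, 14.6% of tested genes were lower in all 3 pairs. Id4 was higher in all 3, at 0.09, 0.19 and 0.24, as were 13.7% of tested genes. Ret had 0.05 in pair 1, -0.25 in pair 2 and -0.21 in pair 3, and Gfra1 had 0.11, -0.14 and -0.20. Zbtb16 (0.03, -0.20 and -0.11) and Lin28a (0.06, -0.14 and -0.07) were likewise above 0 in pair 1 only. Over the members the medians for pairs 1, 2 and 3 were 0.04, -0.14 and -0.09, beside -0.002 in each pair for all tested genes.

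**Figure D4:**
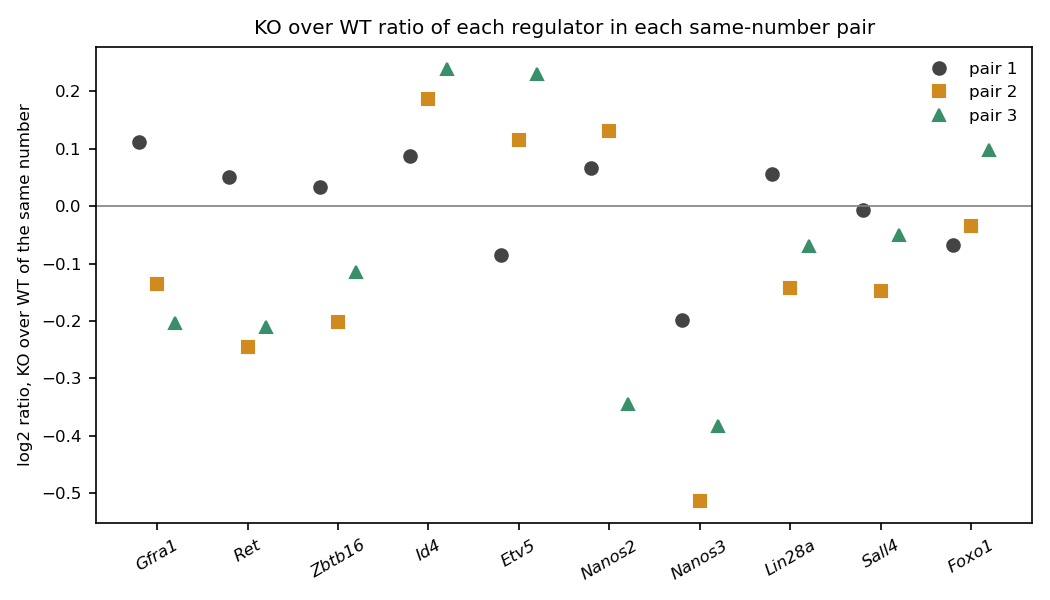
Log2 ratio of the knockout to the wild-type library of the same number for each regulator, on the scale of log2(CPM + 0.5), with 1 symbol per pair. Nanos3 lies between -0.51 and -0.20 in all 3 pairs, and Gfra1, Ret, Zbtb16 and Lin28a lie above 0 in pair 1 and below 0 in pairs 2 and 3.

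Levels per length ordered the members by abundance in these testes. On the RPKM scale (CPM per kilobase of summed exon length), Lin28a was highest, at 23.1 ± 2.33 in the knockout and 24.04 ± 3.43 in the wild type (SD, n = 3 each), and its 6 libraries did not overlap with those of any other member. Foxo1 (17.2 ± 1.95 and 17.1 ± 0.96 RPKM in knockout and wild type), Zbtb16 (16.2 ± 1.06 and 17.3 ± 2.10) and Sall4 (15.2 ± 1.22 and 16.0 ± 1.75) followed, and their ranges over the libraries overlapped. Id4, Etv5, Ret, Nanos3 and Gfra1, ordered by the mean over all 6 libraries, formed a lower run in which each range overlapped with the next. It went from 9.45 ± 1.55 RPKM for Id4 in the knockout (8.40 ± 1.78 in the wild type) to 3.75 ± 0.19 for Gfra1 (3.996 ± 0.64). In the knockout alone Nanos3, at 3.67 ± 0.315 RPKM, lay below Gfra1. Nanos2 was lowest at 0.52 ± 0.13 RPKM in the knockout and 0.57 ± 0.24 in the wild type. Lin28a stood at the 82.3 percentile of level among tested genes and Nanos2 at the 13.0 percentile.

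The members were not always the most abundant of their families. Gfra1 was above its paralogs, with 3.75 RPKM in the knockout and 3.996 in the wild type, against 0.66 and 0.91 for Gfra2, 1.37 and 1.41 for Gfra3 and 1.48 and 1.51 for Gfra4 in the same order of genotypes. These encode co-receptors for neurturin, artemin and persephin. Lin28a exceeded Lin28b (5.16 RPKM in the knockout and 4.91 in the wild type), and Etv5 exceeded Etv1 (1.78 and 1.88) and Etv4 (1.97 and 1.89). Sall4 exceeded Sall1 (3.45 and 3.32), Sall2 (6.19 and 6.91) and Sall3 (0.18 and 0.23), and Zbtb16 exceeded the related Zbtb32 (8.93 and 9.36). By contrast Id4 was below Id1 (16.9 and 18.0), Id2 (46.4 and 44.1) and Id3 (21.9 and 21.1), genes that somatic testis cells also express. Foxo1 was below Foxo3 (42.4 RPKM in the knockout and 40.8 in the wild type) and above Foxo4 (12.2 and 12.1), and its range met that of Foxo6 (14.6 and 16.6). Nanos1, at 7.72 RPKM in the knockout and 8.03 in the wild type, exceeded Nanos2 and Nanos3. Of the 17 paralogs, 0 passed in edgeR in either direction or with the block, and their median log2 fold change was -0.04.

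**Figure D5:**
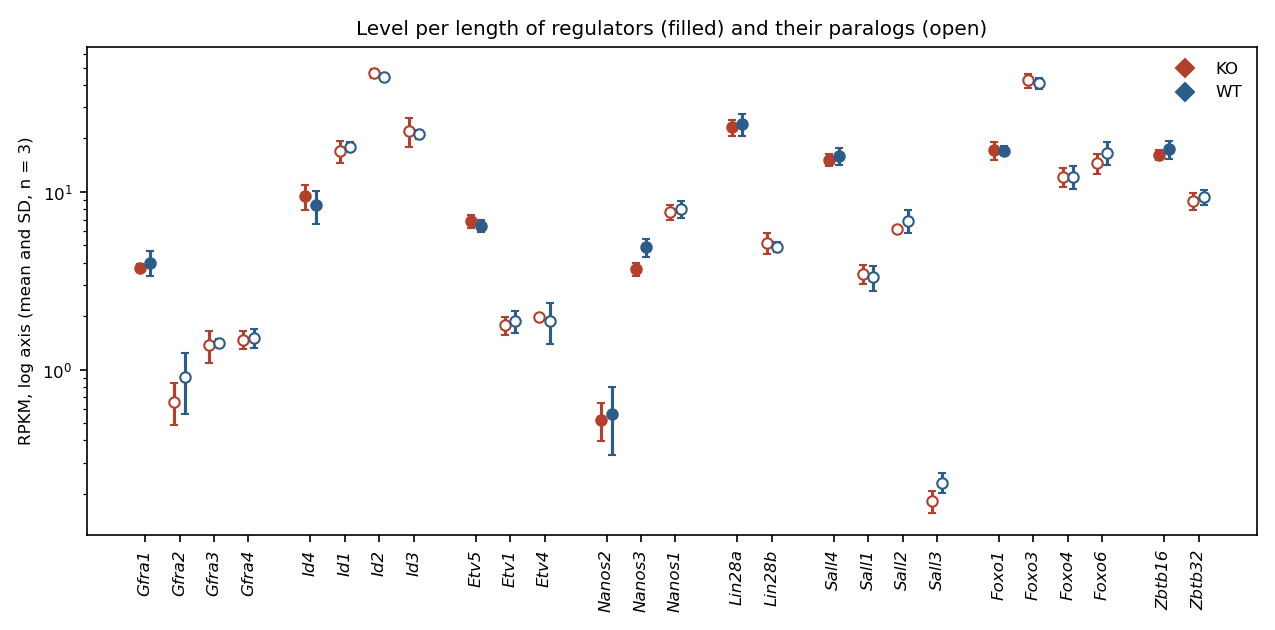
RPKM (log axis, mean and SD of 3 libraries per genotype) of the regulators (filled) and their paralogs (open), grouped by family, knockout left of wild type. Gfra1, Etv5, Lin28a and Sall4 lead their families, while Id4 lies below Id1, Id2 and Id3, and Nanos2 below Nanos1 and Nanos3.

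The GDNF ligand and the genes known to answer it in cultured mouse stem cells were measured in the same fit. Of the 13 genes in this list, 0 passed in either direction with or without the block, and the median log2 fold change was -0.05. Gdnf was at 10.6, 15.3 and 16.5 CPM in the knockout, against 11.8, 18.4 and 13.8 CPM in the wild type, with overlapping groups and a log2 fold change of -0.06 ± 0.20. The renewal factor gene Bcl6b was at 10.1 ± 0.45 CPM in the knockout and 11.1 ± 1.36 in the wild type (SD, n = 3 each, as for the values that follow). The homeobox gene Lhx1 had 1.65 ± 0.06 and 2.03 ± 0.58 CPM in knockout and wild type, and the POU factor gene Pou3f1 17.2 ± 1.77 and 17.7 ± 2.70. The brachyury gene T had 0.57 ± 0.22 and 0.56 ± 0.17 CPM, Egr2 6.88 ± 0.10 and 6.67 ± 0.92, and Egr3 0.41 ± 0.16 and 0.53 ± 0.08. The ERK phosphatase gene Dusp6 had 46.5 ± 6.28 CPM in the knockout and 43.5 ± 1.35 in the wild type, and the feedback inhibitor gene Spry4 8.12 ± 1.80 and 9.44 ± 1.74. Etv4 had 6.11 ± 0.30 and 5.86 ± 1.53 CPM, Mycn 67.7 ± 2.16 and 70.8 ± 13.2, and Utf1 2.50 ± 0.20 and 2.59 ± 0.35. The chemokine receptor gene Cxcr4 had the highest log2 fold change, 0.40 ± 0.23, and was at 13.9, 14.1 and 7.66 CPM in the knockout against 10.6, 8.44 and 8.001 CPM in the wild type. Its knockout replicates 1 and 2 were above every wild-type library and replicate 3 was below them.

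Of the 14 niche signals listed, Gdnf included, 13 could be tested and 0 passed in either direction, with or without the block, and the median log2 fold change was -0.02. Lif, a cytokine, had the largest log2 fold change of this list in size. It was at 1.503, 1.42 and 1.71 CPM in the knockout against 2.22, 2.07 and 2.23 CPM in the wild type. Its groups did not overlap, and its log2 fold change was -0.49 ± 0.20 with an unadjusted p of 0.0312 and an adjusted p of 1 in edgeR. The ligand of KIT, Kitl, was at 367 ± 51.3 CPM in the knockout and 370 ± 54.7 in the wild type. Fgf2 had 19.4 ± 3.17 and 18.7 ± 3.29 CPM in knockout and wild type, Fgf8 0.82 ± 0.04 and 0.68 ± 0.18, and Fgf9 1.21 ± 0.06 and 0.996 ± 0.51. The chemokine gene Cxcl12 had 97.2 ± 6.77 and 105 ± 13.1 CPM, Csf1 20.9 ± 3.46 and 21.1 ± 1.91, and Igf1 157 ± 32.0 and 166 ± 28.5. Wnt5a had 56.6 ± 6.48 and 63.5 ± 12.8 CPM, and Wnt6 106 ± 9.85 and 127 ± 28.7. The GDNF family ligand Nrtn had 6.29 ± 0.33 CPM in the knockout and 5.88 ± 0.63 in the wild type, Artn 0.79 ± 0.18 and 0.78 ± 0.22, and Pspn at most 2 counts in any library.

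Other genes of undifferentiated spermatogonia gave 0 calls among 21 tested, with a median log2 fold change of -0.05. The smallest unadjusted p values belonged to the X-linked Sox3, a factor of committed progenitors, and Taf4b, a TFIID subunit gene of germ cells. Sox3 was at 45.2, 49.4 and 45.3 CPM in the knockout against 52.5, 55.9 and 47.9 CPM in the wild type, where knockout replicate 2 lay above wild-type replicate 3 (log2 fold change -0.16 ± 0.08). Taf4b was at 163, 143 and 170 CPM in the knockout against 158, 121 and 146 CPM in the wild type (0.17 ± 0.10). Egr4, which marks progenitors, had -0.18 ± 0.12. Cdh1, an epithelial cadherin gene also present in undifferentiated spermatogonia, was at 5.78, 6.32 and 6.40 CPM in the knockout against 6.11, 6.25 and 11.7 CPM in the wild type. The high value was in the library with the highest sum of epididymis and rete genes, and a link between them was not tested. Neurog3, a progenitor factor, was at 5.28, 4.58 and 4.55 CPM in the knockout against 4.57, 5.63 and 5.16 CPM in the wild type.

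At the next stage, 10 genes of differentiating spermatogonia gave 0 calls and a median log2 fold change of -0.005. Kit, the receptor that marks this step, was at 170, 191 and 193 CPM in the knockout against 182, 180 and 192 CPM in the wild type. Stra8, which germ cells need to enter meiosis, was at 213, 176 and 179 CPM in the knockout against 200, 179 and 193 CPM in the wild type. The cyclin gene Ccnd2 had the lowest value of this list, -0.28 ± 0.14, and Sohlh1, a helix-loop-helix factor that turns down stem cell genes, had -0.13 ± 0.08. With the replicate block Ccnd2 did not pass over all genes in edgeR (adjusted p = 0.276). In the same test it was called without pair 1 (adjusted p = 0.0163), but not without pair 2 (0.451) or pair 3 (0.949).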

How the data were processed

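Whole-testis RNA of 3 Ankrd31-/- and 3 Ankrd31+/+ mice was made into stranded libraries, per the labels. The authors deposited raw read counts per gene with summed exon lengths. The submitters' processing notes name bcl2fastq 2.19.1, GSNAP, featureCounts 1.6.0 and the build mm10. No source used here gives the strand setting, the annotation release or the handling of reads that match several genes. From 49763 rows, 92 spike-in rows (1 count in all) were left out. Of 49671 gene rows, 49326 matched a table of GENCODE M21 symbols and 345, with 0.0311% of counts, did not.

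The test was that of edgeR 4.0.16 under R 4.3.3 (low counts removed by filterByExpr, TMM, robust quasi-likelihood fit, genotype as the only term, two-sided, Benjamini-Hochberg over 18040 genes, threshold 0.05). SE is the log2 fold change over the square root of F, and intervals use the t quantile. RPKM and pair ratios (pseudocount 0.5 CPM) were computed from the same scaling. The median SE was 0.113. The p-values set the genotype difference against the variation between libraries of a group, which here includes that between replicate numbers. Deviations of same-number libraries from their group means correlated at 0.42, 0.26 and 0.28, each over 0.1. On this hint from the data the numbers were taken as pairs in the pair ratios and in the fits with the block. The main test, with genotype as the only term, did not use them. Replicates of a group differed by a chi-square of 7.35 to 12.96 per degree of freedom, so none was a duplicate. DESeq2 1.42.0 and limma 3.58.1 (voom) were alternatives. The members and gene lists were chosen with earlier results of these data known, so no p was adjusted over a list alone. Named genes were the members, Ankrd31 and all genes of the ligand, paralog and GDNF lists. Up to 4 of each other list were named by smallest unadjusted p. Kit, Stra8, Neurog3, Sox17, those named as examples and those called without a pair were picked beyond this rule, after their values were seen. Of the listed symbols 1 was not resolved to a row. The result of 1 list is not reported here.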

Additional observations from a re-analysis of the deposited data

How the results depend on the processing

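No member was called under any of the 19 alternatives. Ret, Zbtb16, Sall4 and Nanos3 stayed below 0 and Id4 and Etv5 above 0 in all of them, with Nanos3 between -0.50 and -0.33. Foxo1 had log2 fold changes of 0.000 with the replicate block, -0.013 with library totals alone, -0.035 when scaled to the germ cell list and -0.001 with limma voom, and -0.084 to 0.079 over the fits without a library or pair. Fits without a library or pair ran from -0.21 to 0.012 for Gfra1, -0.36 to 0.25 for Nanos2, -0.17 to 0.038 for Lin28a and -0.216 to 0.143 for Gdnf (-0.19 without wild-type replicate 1 and 0.061 with the block without pair 2). With the block and without pair 3, Nanos2 had 0.169 and Foxo1 -0.05; the cause was not tested. The members' median ran from -0.182 to 0.025 over these fits. The count of all genes called, 0 without the block, was 8 with the replicate block, 10 when scaled to the germ cell list, 2 with DESeq2, 1 with no filter on low counts and 0 to 63 over fits without a library or pair (63 with the block without pair 1, 57 without pair 2 and 0 without pair 3). Genes of the other lists called were 0 to 8 over the same fits, 8 with the block without pair 1 and 3 without pair 2. The block changed no call of a member. Without wild-type replicate 1, 5 members had an unadjusted p under 0.05 in edgeR, as did 1531 of 18341 tested genes. With the block and without pair 1, 3 members did, as did 1819 of 18104 tested genes. The count of members was 0 without wild-type replicate 2 or 3 or knockout replicate 1 or 2. It was also 0 with the block without pair 2 or 3, when scaled to the germ cell list and in DESeq2. The unadjusted p of Nanos3 thus stays under 0.05 in only some of the fits. Counts limited Nanos2 most, with 12 to 27 per library, and its fit with at least 1 CPM in 3 libraries gave no value.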
